A study of Danio rerio with 18 samples.

Results

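The Hox cluster genes encode homeodomain transcription factors that lie side by side in the genome. All rows of the count table whose gene name, ignoring case, is hox followed by a cluster letter from a to d and a digit were taken, which gave 47 of 27057 genes. They comprised 11 genes of the A clusters, 15 of the B clusters, 14 of the C clusters and 7 of the D cluster. The digit is the paralog group, which numbers the genes by their order along a cluster. The genes of the A, B and C clusters were pooled by cluster letter, over the a and b copies.

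Hox genes are switched on in the order in which they lie, so that low-numbered paralogs mark the hindbrain and neck and high-numbered paralogs mark the hind trunk, the tail and the ends of the paired fins or limbs. The forebrain, the midbrain and the neural crest that fills the front of the face do not use them, and markers such as the OTX genes are found there instead. Adult connective tissue, muscle and nerve sheath cells keep much of this positional code, and a whole tumour can hold such tissue besides its own cells.

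The tumours arose in zebrafish of the Tu background that lacked p53 (p53-/-) and had been injected at the 1-cell stage with a plasmid carrying the oncogene BRAFV600E, the mutant kinase found in many human melanomas. In the mitfa-BRAFV600E group (n = 6) the oncogene was under the promoter of mitfa, the regulator of pigment cell fate, and in the sox10-BRAFV600E group (n = 12) under that of sox10, an earlier gene of the neural crest. Loss of p53 and BRAFV600E were thus common to both groups, and the promoter was the difference that the labels name. The library numbers run in separate blocks for each group, so library order cannot be told apart from the promoter. The fish were injected founders (F0), in which a plasmid is usually carried by a mosaic of cells. Whole adult tumours, labelled melanoma, were extracted, and the labels used here do not say where on the body each tumour lay or whether each came from a different fish. The p-values therefore measure the spread between these samples, and in whole tumours fewer cells of a type and less RNA per cell cannot be told apart.

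Each library held 14973777 to 21191902 reads on genes. Of 13 tested genes of a melanocyte list, 12 were lower in the sox10 tumours, beside 22.4% of all genes tested. The summed level of the list was 4701 to 19988 reads per 1000000 normalised gene reads (CPM) in the mitfa tumours against 27.7 to 135 CPM in the sox10 tumours. The labelled tissue was thus marked by its defining genes in the mitfa tumours and only weakly in the sox10 tumours. The MITF gene ENSDARG00000003732 stood at 136 to 228 CPM against 0.604 to 9.02 CPM, a log2 change of -5.73 ± 0.53 (SE; edgeR adjusted p = 8.21e-08). For a second gene named MITF, ENSDARG00000037833, the groups differed by 0.71 ± 0.44 (edgeR adjusted p = 0.196). SOX10 was higher in the sox10 tumours by 1.05 ± 0.23 on the log2 scale (edgeR adjusted p = 0.00111). Schwann cell and glia markers summed to 451 to 820 CPM in the mitfa tumours and 9862 to 55640 CPM in the sox10 tumours. The list holds SOX10 itself, at 296 to 660 CPM in the mitfa tumours and 582 to 1397 CPM in the sox10 tumours. SOX10 thus made most of the sum in each mitfa tumour. The markers, SOX10 included, were higher for 11 of 13 tested genes, beside 21.5% of all genes tested. Mitfa tumours 1 and 5 stood apart from the other mitfa tumours in the glial gene OLIG2, at 57.8 and 80.9 CPM against 1.25 CPM or less. Sox10 tumours 9 and 10 were far more alike than any other pair of a group: over all genes the squared gap between their counts had a median of 1.102 times the counting variance, against at least 7.42 in the other pairs and 0.455 for counting noise alone. They were kept as separate samples.

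All levels below are CPM on the scale of trimmed-mean normalisation. They count reads and not reads per length, so levels are compared between tumours and not between genes. A Hox gene was called detected in a tumour at 1 CPM or more. By that measure 40 of the 47 genes were detected in at least 1 tumour and 7 in none, namely HOXA5, hoxa13a, hoxb1b, hoxb6b, hoxb8b, HOXB13 and hoxd13a. HOXD3, HOXD9 and HOXD10 were detected in all 6 mitfa tumours, and no Hox gene was detected in all 12 sox10 tumours.

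**Figure D1:**
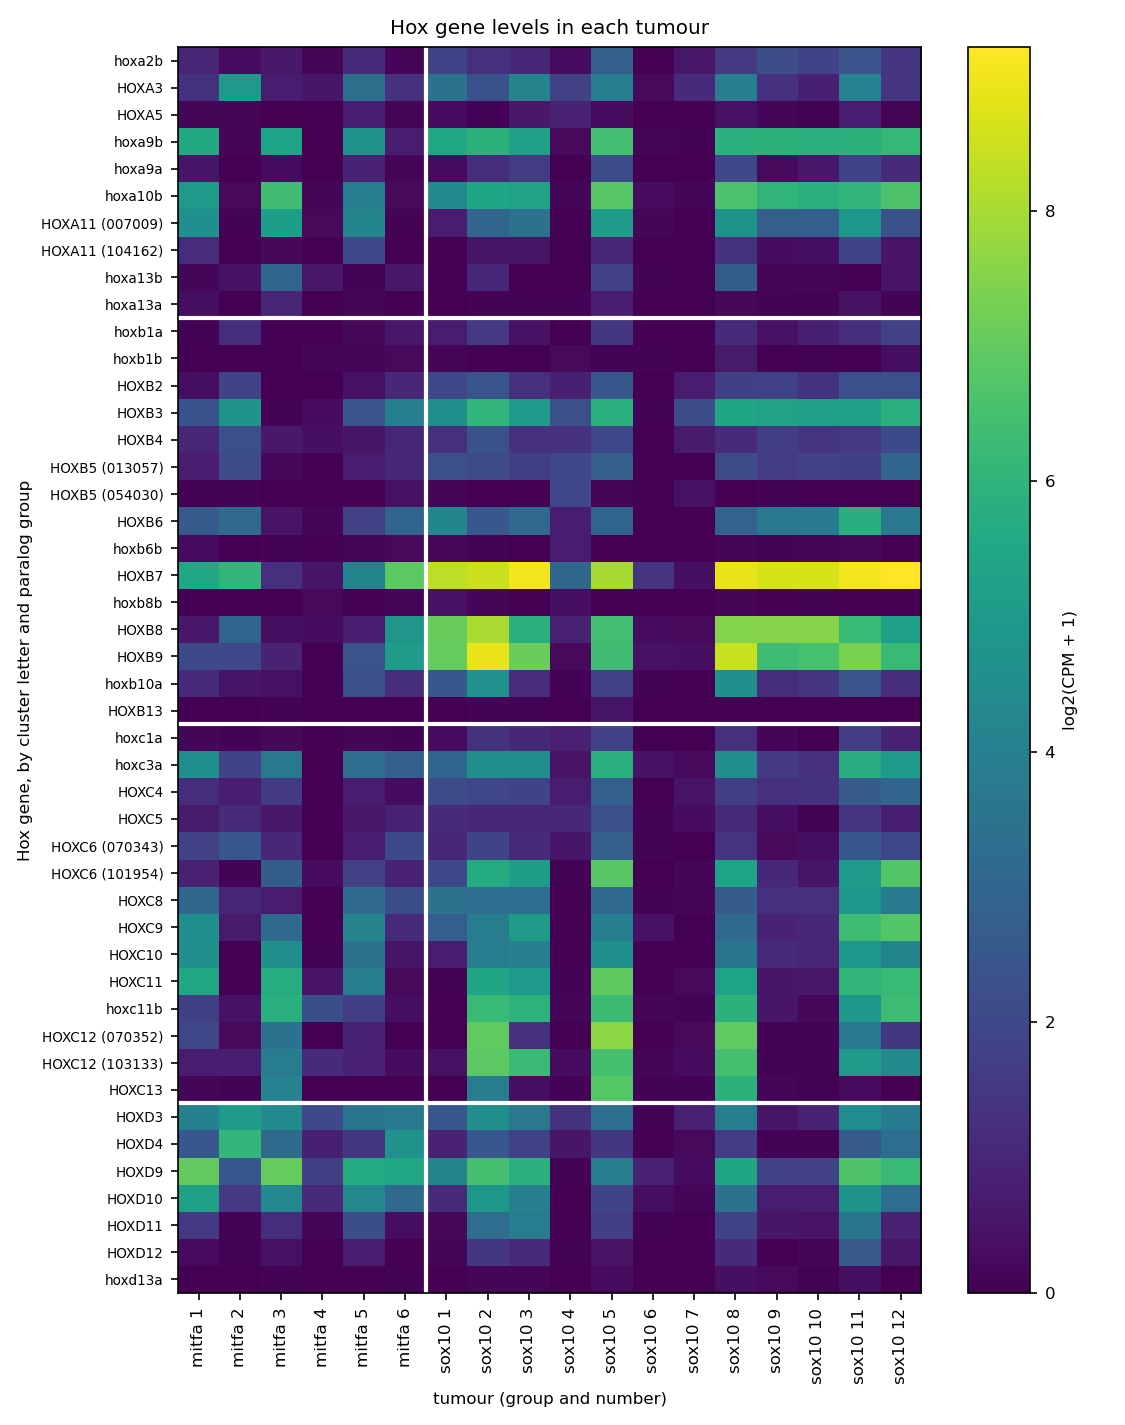
Level of 46 Hox genes (rows, ordered by cluster letter and paralog group, with the last digits of the identifier where a name is shared) in each tumour (columns), as log2(CPM + 1) in colour. White lines separate the cluster letters and the tumour groups. Mitfa tumour 4 and sox10 tumours 4, 6 and 7 are dark over most rows, with 5, 8, 1 and 2 genes detected.

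The mitfa tumours were read one after another, from the nearest to the furthest paralog group detected. Mitfa tumour 1 had 24 detected Hox genes, from group 3 to group 12, and a summed Hox level of 485 CPM. Mitfa tumour 3 ran from group 3 to group 13 with 21 genes and 551 CPM, and was the only mitfa tumour with a group 13 gene, hoxa13b at 7.01 CPM and HOXC13 (ENSDARG00000070353) at 16.002 CPM. Mitfa tumour 5 ran from group 2 to group 11 with 23 genes and 257 CPM. In tumours 1 and 3 paralog groups 9 to 13 held 76.5% and 90.1% of the Hox reads, and in tumour 5 all but the 13.9% of groups 1 to 3 and the 14.1% of groups 4 to 8, so most reads of these 3 tumours came from the posterior end.

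Mitfa tumour 2 ran from group 1 to group 10 with 18 genes and 283 CPM, and groups 9 to 13 held 4.56% of its Hox reads. It was the only mitfa tumour in which hoxb1a, of group 1, was detected, at 1.31 CPM, and it held the highest levels of HOXA3 (31.2 CPM) and HOXD4 (67.3 CPM) of all 18 tumours. Mitfa tumour 6 ran from group 2 to group 10 with 17 genes and 313 CPM, of which groups 9 to 13 held 28.8%. Both were weighted to the groups 4 to 8, with 58.0% and 59.7% of Hox reads.

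Mitfa tumour 4 had 5 detected Hox genes and a summed level of 15.97 CPM. These were HOXD3 at 3.07 CPM, HOXD9 at 2.31 CPM, HOXD10 at 1.22 CPM, hoxc11b at 3.59 CPM and HOXC12 (ENSDARG00000103133) at 1.22 CPM. Its furthest group, 12, rested on the last of these, with 21 reads, and no A or B gene reached 1 CPM in it.

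In 6 sox10 tumours the detected Hox genes ran over nearly all paralog groups. Sox10 tumours 2, 5 and 8 ran from group 1 to group 13 with 37, 36 and 38 detected genes and 1961, 1619 and 1828 CPM. Sox10 tumours 3, 11 and 12 ran from group 1 to group 12 with 33, 36 and 31 genes and 1266, 1597 and 1534 CPM. The group 1 end of all 6 rested on hoxb1a or hoxc1a at 1.02 to 2.53 CPM, near the threshold of 1 CPM. In sox10 tumour 3 it rested on hoxc1a alone, with 17 reads. In these 6 tumours the groups 9 to 13 held 41.2% to 60.6% of the Hox reads, and each of the 6 had more detected Hox genes than any mitfa tumour.

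Sox10 tumours 1, 9 and 10 held an intermediate extent. Tumour 1 ran from group 2 to group 10 with 23 genes and 762 CPM. Tumours 9 and 10, the 2 most similar libraries, both ran from group 2 to group 11 with 20 and 19 genes and 872 and 877 CPM. Their furthest gene was HOXA11 (ENSDARG00000007009), at 5.83 and 5.74 CPM, and the groups 4 to 8 held 63.8% to 70.0% of the Hox reads of all 3.

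Sox10 tumours 4, 6 and 7 carried few Hox reads. Tumour 4 had 8 detected genes from group 3 to group 7, with 32.6 CPM in all. It was the only tumour in which the HOXB5 gene ENSDARG00000054030 was detected, at 2.85 CPM. Tumour 6 had a single detected gene, HOXB7 at 1.58 CPM and 27 reads, and 5.51 CPM in all. Tumour 7 had HOXA3 at 1.21 CPM and HOXB3 at 3.58 CPM, and 11.3 CPM in all.

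**Figure D2:**
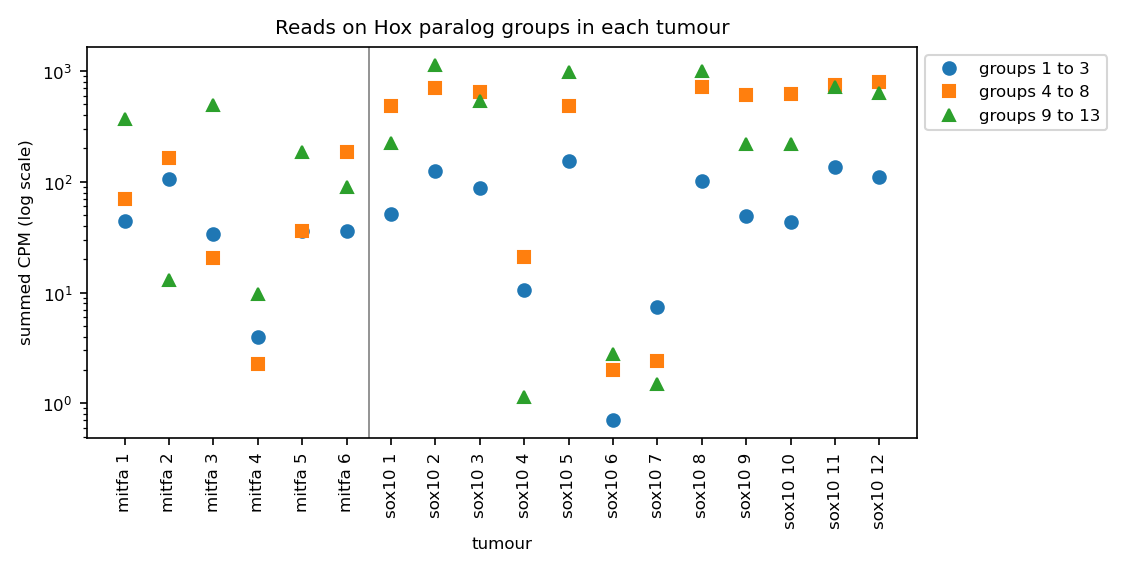
Summed CPM (log scale) of paralog groups 1 to 3 (circles), 4 to 8 (squares) and 9 to 13 (triangles) in each of the 6 mitfa and 12 sox10 tumours. Groups 4 to 8 reach 485 to 791 CPM in 9 sox10 tumours and at most 187 CPM in the mitfa tumours, and sox10 tumours 4, 6 and 7 lie at 20.9 CPM or less in every block.

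By group, the number of detected Hox genes was 18 ± 6.93 (SD, n = 6) in the mitfa tumours and 23.7 ± 13.8 (SD, n = 12) in the sox10 tumours. The furthest paralog group was 11.3 ± 1.21 (SD) against 10.3 ± 3.11 (SD), and the mean paralog group weighted by level was 7.70 ± 1.68 (SD) against 7.46 ± 1.42 (SD). Both positional measures differed between the groups by less than the spread within them. The summed Hox level was 318 ± 189 CPM (SD) in the mitfa tumours, from 15.97 to 551, and 1030 ± 719 CPM (SD) in the sox10 tumours, from 5.51 to 1961, so that the groups overlapped at the low end. No p is given for these measures, since the members were chosen with results of these tumours known.

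Hox genes varied more between tumours of a group than most genes did. The median SD of log2 CPM over the 34 Hox genes with enough reads in enough tumours to be tested was 2.19 within the mitfa group, against 0.68 over all tested genes, and 33 of the 34 lay above that median. Within the sox10 group it was 2.72 against 0.63, and all 34 lay above. This spread sets the precision of every comparison of the 2 groups that follows.

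Of the 34 tested Hox genes, 5 were higher and 1 was lower in the sox10 tumours at an adjusted p below 0.05 (edgeR's quasi-likelihood test with Benjamini-Hochberg adjustment over all 18731 genes tested), and 28 did not pass. Calls were made for 17.6% of the tested Hox genes, against 43.9% of all genes tested, of which 21.5% were higher and 22.4% lower. The share of Hox genes called was thus below that of all genes. No Hox gene separated the groups without overlap, against 11.8% of all genes tested, 6.85% with the sox10 tumours higher and 4.91% with them lower. The median log2 change of the 34 was 1.42 and 26 of them were positive, beside a median of -0.033 over all genes. The remaining 13 genes did not have enough reads in enough tumours to be tested, among them HOXA5, HOXA11 (ENSDARG00000104162), hoxa13b, hoxa13a, hoxb1b, HOXB5 (ENSDARG00000054030), hoxb6b, hoxb8b, HOXB13, HOXC13 (ENSDARG00000070353), HOXD12 and hoxd13a. HOXC13 had 3324 reads in all, of which 1707 and 1144 lay in sox10 tumours 5 and 8.

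These counts changed with the method. DESeq2 called 9 Hox genes higher and 1 lower, limma called 0 higher and 1 lower, and edgeR with the fraction of reads lying outside annotated genes as a covariate called 1 higher and 0 lower. That fraction was 9.46% to 12.8% in the mitfa tumours and 11.1% to 17.4% in the sox10 tumours. The covariate is thus partly tied to the group, and a call lost with it can reflect lower precision. Without mitfa tumours 1 and 5 edgeR called 2 higher and 1 lower. In edgeR, 8 of the 34 had an unadjusted p below 0.05. Leaving out mitfa tumour 1 or mitfa tumour 4 left 3 genes higher, and leaving out mitfa tumour 2 left none lower.

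The B cluster genes of groups 7 to 9, which in vertebrate embryos mark the trunk, were split within the sox10 group. HOXB8 ranged from 0.231 through a median of 0.624 to 26.9 CPM in the mitfa tumours, and from 0.173 through 79.6 to 261 CPM in the sox10 tumours. The 9 sox10 tumours other than 4, 6 and 7 lay at 37.6 CPM or more, above every mitfa tumour, while tumours 4, 6 and 7 lay at 0.86 CPM or less. The log2 change was 4.07 ± 1.41 (SE; edgeR adjusted p = 0.0252), and without mitfa tumour 6, the highest of its group, it was 5.82. The call was lost with limma (4.05, adjusted p = 0.287), with reads outside genes as a covariate (4.49, edgeR adjusted p = 0.0660) and without mitfa tumours 1 and 5 (3.56, edgeR adjusted p = 0.0853).

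HOXB9 ranged from 0 through 3.03 to 33.3 CPM in the mitfa tumours and from 0.171 through 86.5 to 478 CPM in the sox10 tumours. The same 9 sox10 tumours lay above all mitfa tumours, at 72.04 CPM or more, and the same 3 lay at 0.35 CPM or less. Its log2 change was 4.14 ± 1.45 (SE; edgeR adjusted p = 0.0263). The call was lost without mitfa tumour 1 (adjusted p = 0.0507, edgeR) or mitfa tumour 2 (adjusted p = 0.0554, edgeR), and without mitfa tumour 6 the change was 5.86.

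HOXB7 ranged from 0.463 through 30.3 to 117 CPM in the mitfa tumours and from 0.288 through 376 to 591 CPM in the sox10 tumours. Again 9 sox10 tumours lay above every mitfa tumour, at 247 CPM or more, with sox10 tumours 4, 6 and 7 at 7.47, 1.58 and 0.29 CPM. It did not pass, with a log2 difference of 2.96 ± 1.23 (SE; edgeR adjusted p = 0.0577). It passed when sox10 tumour 4 (adjusted p = 0.0446), sox10 tumour 6 (adjusted p = 0.0348), sox10 tumour 7 (adjusted p = 0.0286) or mitfa tumour 6 (adjusted p = 0.0447) was left out of the edgeR fit. DESeq2 gave an adjusted p of 0.00982.

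**Figure D3:**
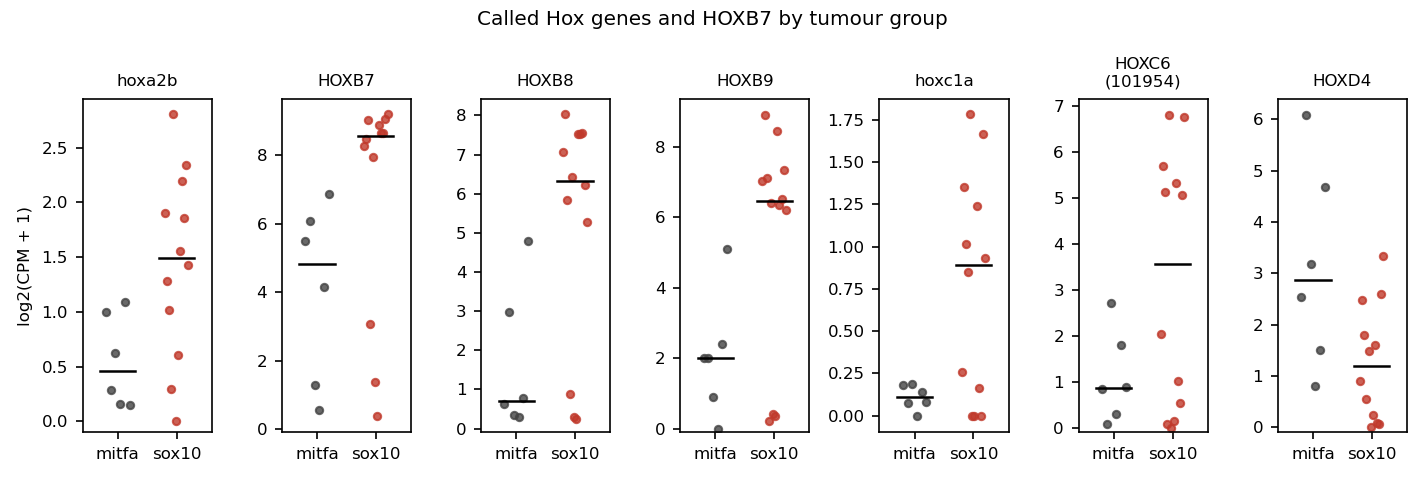
Level of the 6 Hox genes called between the groups and of HOXB7, as log2(CPM + 1), with a point for each of the 6 mitfa (grey) and 12 sox10 (red) tumours and a line at each group's median; each panel has its own scale. For HOXB7, HOXB8 and HOXB9, 9 sox10 points lie above all mitfa points and 3 lie among or below them.

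The other tested B genes, from hoxb1a to HOXB6 and hoxb10a, had log2 differences between 0.66 (HOXB4) and 2.19 (hoxb10a), and none passed. All 10 tested B genes had a positive value, with a median of 1.85. HOXB3, a gene of the hindbrain and neck, lay at 0.0681 to 26.4 CPM with a median of 4.19 in the mitfa tumours and at 0.0587 to 65.8 CPM with a median of 35.8 in the sox10 tumours. Its groups overlapped, and its log2 difference was 1.99 ± 0.99 (SE; edgeR adjusted p = 0.112). It passed with DESeq2 (adjusted p = 0.0419), with the muscle markers as a covariate (edgeR adjusted p = 0.0356) and without mitfa tumour 2 (edgeR adjusted p = 0.0486).

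HOXB2 and HOXB5 (ENSDARG00000013057), of the hindbrain and neck groups, were not called. HOXB2 lay at 0 to 2.63 CPM with a median of 0.312 in the mitfa tumours and at 0 to 4.70 CPM with a median of 2.43 in the sox10 tumours, and HOXB5 at 0 to 3.39 CPM with a median of 0.665 against 0 to 6.93 CPM with a median of 2.77. Mitfa tumour 2 held the highest mitfa level of both. Without it HOXB2 passed (2.77, edgeR adjusted p = 0.0320), as it did with the muscle markers as a covariate (edgeR adjusted p = 0.0492). Sox10 tumour 4, low in HOXB2 at 0.74 CPM, stood at 2.97 CPM of HOXB5, within the range of the other sox10 tumours.

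HOXB6 lay at 0.116 to 8.04 CPM with a median of 3.72 in the mitfa tumours and at 0 to 54.2 CPM with a median of 7.32 in the sox10 tumours. Its highest tumour was sox10 tumour 11, and the next highest, sox10 tumour 1, stood at 17.4 CPM. The gene hoxb10a lay at 0 to 3.79 CPM with a median of 0.782 and at 0 to 24.0 CPM with a median of 1.48, with sox10 tumours 2 and 8 at 24.0 and 23.4 CPM and no other tumour above 4.78 CPM. Sox10 tumours 1, 2, 8 and 11 lay above every mitfa tumour and the other 8 did not.

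Of the 6 tested A genes, 1 was called, beside 43.9% of all genes tested. The gene hoxa2b, which in vertebrate embryos patterns the hindbrain and the second pharyngeal arch, ranged from 0.113 through 0.382 to 1.13 CPM in the mitfa tumours and from 0 through 1.81 to 5.98 CPM in the sox10 tumours. It was detected in 1 of 6 mitfa and 9 of 12 sox10 tumours, and the 3 sox10 tumours below 1 CPM were again 4, 6 and 7. The log2 change was 2.04 ± 0.81 (SE; edgeR adjusted p = 0.0480). This call sat at the threshold and was lost when any of mitfa tumours 2, 3, 4 or 6, or any of sox10 tumours 1, 2, 5 or 8 to 12, was left out, with edgeR adjusted p between 0.0533 and 0.0992. It was also lost with the similar sox10 tumours 9 and 10 summed (edgeR adjusted p = 0.0636) and with limma (adjusted p = 0.230). With reads outside genes as a covariate the value was 1.16 (edgeR adjusted p = 0.449).

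HOXA3, which patterns the hindbrain and the posterior pharyngeal arches, lay at 0.463 to 31.2 CPM with a median of 1.498 in the mitfa tumours and at 0.176 to 16.5 CPM with a median of 3.25 in the sox10 tumours. Mitfa tumours 2 and 5 stood at 31.2 and 9.59 CPM and the other 4 at 1.52 CPM or less, so that the mean of the mitfa group rested on mitfa tumour 2. The groups overlapped, and the log2 difference was -0.12 ± 0.90 (SE; edgeR adjusted p = 0.926).

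The posterior A genes hoxa9b and hoxa10b were split within each group. In the mitfa tumours hoxa9b stood at 47.6, 39.6 and 24.6 CPM in tumours 1, 3 and 5 and at 0.62 CPM or less in tumours 2, 4 and 6. In the sox10 tumours it stood at 37.9 to 87.3 CPM in 9 tumours and at 0.17 CPM or less in tumours 4, 6 and 7. The gene hoxa10b was detected in the same 12 tumours and in no other, at 0.116 to 83.4 CPM with a median of 7.06 in the mitfa tumours and at 0.114 to 113 CPM with a median of 49.3 in the sox10 tumours. Neither passed, with log2 differences of 1.25 ± 1.24 and 1.21 ± 1.27 (SE; edgeR adjusted p = 0.436 and 0.461). HOXA11 (ENSDARG00000007009) stood at 23.9, 34.5 and 17.2 CPM in mitfa tumours 1, 3 and 5 and at 0.17 CPM or less in the other 3. In the sox10 tumours it ranged from 0 through a median of 5.78 to 32.3 CPM, with tumour 1 at 0.68 CPM although hoxa10b stood at 19.7 CPM there. Among the A genes of sox10 tumour 1, pooled over the A clusters, none beyond group 10 thus reached 1 CPM. The copy of this HOXA11 gene was not told apart, so the step from hoxa10b cannot be placed on a single cluster.

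Of the 13 tested C genes, 2 were called, again beside 43.9% of all genes tested. One of the genes named HOXC6, ENSDARG00000101954, ranged from 0.0547 through 0.822 to 5.52 CPM in the mitfa tumours and from 0 through 17.8 to 111 CPM in the sox10 tumours. It lay at 32.5 CPM or more in sox10 tumours 2, 3, 5, 8, 11 and 12, and at 3.12 CPM or less in the other 6. The log2 change was 4.26 ± 1.55 (SE; edgeR adjusted p = 0.0322), and the call was lost without mitfa tumour 1, 2, 4 or 6, with edgeR adjusted p from 0.0594 to 0.0650. The other gene named HOXC6, ENSDARG00000070343, lay at 0 to 4.65 CPM with a median of 1.77 in the mitfa tumours and at 0 to 5.92 CPM with a median of 1.11 in the sox10 tumours, a difference of -0.21 ± 0.91 (SE; edgeR adjusted p = 0.867).

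The gene hoxc1a was at 0 to 0.136 CPM in the mitfa tumours, with no more than 2 reads in any, and at 0 to 2.45 CPM with a median of 0.853 in the sox10 tumours. The sox10 tumours at 1 CPM or more were 2, 3, 5, 8 and 11, while 3 had no read. Its fitted log2 change was 3.36 ± 1.09 (SE; edgeR adjusted p = 0.0174), a value that at so few mitfa reads is no measure of size. The call stayed with each tumour left out in turn, and was lost with limma (adjusted p = 0.245) and with reads outside genes as a covariate (edgeR adjusted p = 0.145).

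The C genes of groups 3 to 5 did not pass. The gene hoxc3a lay at 0 to 21.9995 CPM with a median of 7.32 in the mitfa tumours and at 0.173 to 56.3 CPM with a median of 14.3 in the sox10 tumours. HOXC4 lay at 0 to 1.97 CPM with a median of 0.714 in the mitfa tumours and at 0 to 6.93 CPM with a median of 2.42 in the sox10 tumours, a log2 difference of 1.73 ± 0.85 (SE; edgeR adjusted p = 0.105). Sox10 tumours 5 and 11 were the highest for hoxc3a and sox10 tumours 12 and 5 for HOXC4, and in both genes the groups overlapped. HOXC4 passed with DESeq2 (adjusted p = 0.0448) and without sox10 tumour 6 (edgeR adjusted p = 0.0441).

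HOXC8 and HOXC9, of the trunk groups, lay at 0 to 8.25 and 0 to 23.9 CPM in the mitfa tumours, with medians of 2.30 and 4.65. In the sox10 tumours they lay at 0 to 28.1 and 0 to 106 CPM, with medians of 6.89 and 6.85. HOXC9 was highest in sox10 tumours 12 and 11, at 106 and 80.9 CPM, and the next highest, sox10 tumour 3, stood at 31.7 CPM. In sox10 tumours 9 and 10, which carried 399 and 406 CPM of HOXB7, HOXC9 stood at 0.89 and 1.06 CPM.

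HOXC10 and HOXC11 divided the mitfa tumours in the way of the posterior A genes, at 9.996 to 23.9 and 14.05 to 50.7 CPM in mitfa tumours 1, 3 and 5 and at 0.45 CPM or less in tumours 2, 4 and 6. In the sox10 tumours HOXC10 ranged from 0 through 6.03 to 29.0 CPM and HOXC11 from 0 through 15.6 to 119 CPM. HOXC11 stood at 30.8 CPM or more in sox10 tumours 2, 3, 5, 8, 11 and 12 and at 0.50 CPM or less in the other 6. The gene hoxc11b was high in the same 6, at 29.2 CPM or more, and in mitfa tumour 3, at 56.3 CPM, while mitfa tumour 1 stood at 2.32 CPM. HOXC12 (ENSDARG00000103133) was likewise at 20.4 CPM or more in those 6 sox10 tumours and at 0.34 CPM or less in the other 6, with mitfa tumour 3 at 14.03 CPM. None of these 4 genes passed, with edgeR adjusted p from 0.0805 to 0.977.

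The posterior C genes were uneven between tumours. HOXC12 (ENSDARG00000070352) stood at 122, 201 and 124 CPM in sox10 tumours 2, 5 and 8, at 12.1 CPM in sox10 tumour 11, at 10.1 CPM in mitfa tumour 3, and at 2.85 CPM or less elsewhere. HOXC13 (ENSDARG00000070353) stood at 13.8, 110 and 60.1 CPM in sox10 tumours 2, 5 and 8 and at 16.002 CPM in mitfa tumour 3, with 0.30 CPM or less in the other 14. The gene hoxa13b reached 1 CPM in the same 4 tumours, at 7.01 CPM in mitfa tumour 3 and at 1.06, 2.45 and 5.57 CPM in the sox10 tumours. Group 13 genes, which mark the tail and the outer fin, were thus detected in 1 of 6 mitfa and 3 of 12 sox10 tumours. HOXB13 and hoxd13a stayed at 0.45 CPM or less in every tumour.

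The D cluster went the other way in 1 gene. HOXD4, of the hindbrain and neck group 4, ranged from 0.752 through 6.44 to 67.3 CPM in the mitfa tumours and from 0 through 1.34 to 9.13 CPM in the sox10 tumours. Mitfa tumours 2 and 6, at 67.3 and 24.8 CPM, lay above every sox10 tumour, and the other 4 overlapped with them. The log2 change was -3.01 ± 0.97 (SE; edgeR adjusted p = 0.0166), and without mitfa tumour 2 it was -1.86 (edgeR adjusted p = 0.138). The call was also lost with the epidermal markers as a covariate (-2.61, edgeR adjusted p = 0.164) and with reads outside genes as a covariate (-3.32, edgeR adjusted p = 0.0733).

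The other tested D genes did not pass. HOXD9 stood at 2.31 to 129 CPM with a median of 46.6 in the mitfa tumours and at 0.0571 to 102 CPM with a median of 15.1 in the sox10 tumours, a log2 difference of -0.83 ± 1.05 (SE; edgeR adjusted p = 0.544). HOXD3 lay at 3.07 to 31.9 CPM with a median of 13.9 in the mitfa tumours and at 0.0587 to 23.2 CPM with a median of 6.87 in the sox10 tumours. HOXD10 lay at 1.22 to 37.2 CPM with a median of 13.4 and at 0 to 28.0 CPM with a median of 1.90. In these 3 genes sox10 tumours 9 and 10 were low, at 2.47 CPM or less, and so were sox10 tumours 4, 6 and 7, at 1.54 CPM or less. HOXD11 lay at 0.0547 to 3.64 CPM with a median of 0.788 in the mitfa tumours and at 0 to 13.7 CPM with a median of 0.691 in the sox10 tumours. HOXD3 and HOXD10 differed by -0.88 and -0.89, and HOXD11 by 1.45, on the log2 scale. The median over the 5 tested D genes was -0.88, and 1 of the 5 was positive, beside 1.23 for the A genes and 1.39 for the C genes.

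The balance of the clusters differed between the tumours. The D cluster supplied 28.3% to 46.7% of the Hox reads in the mitfa tumours and 0.49% to 23.4% in the sox10 tumours, so that these shares did not overlap. The share of 23.4% was that of sox10 tumour 6, which had 5.51 CPM of Hox reads in all. In CPM the D cluster overlapped, at 7.46 to 186 in the mitfa tumours and 1.29 to 171 in the sox10 tumours. The B clusters supplied 0.77% to 65.3% of the Hox reads in the mitfa tumours and 30.8% to 84.4% in the sox10 tumours. The summed level of the B clusters was at most 204 CPM in the mitfa tumours, 499 to 1200 CPM in 9 sox10 tumours and 2.35 to 22.1 CPM in sox10 tumours 4, 6 and 7.

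**Figure D4:**
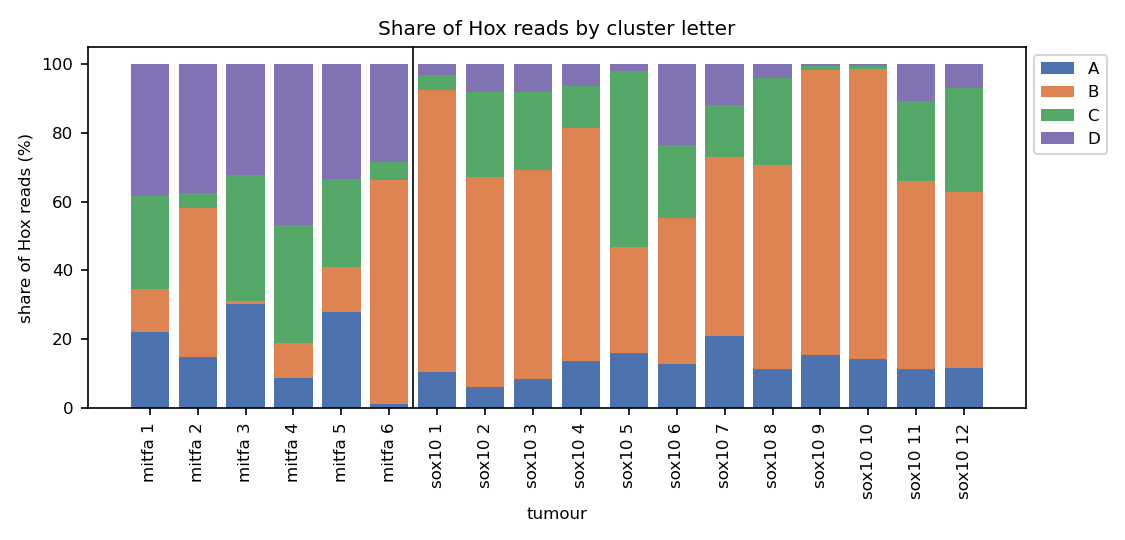
Share of each tumour's Hox reads (%) that fell on genes of the A, B, C and D cluster letters, as stacked bars that sum to 100. The D share (top, purple) is 28.3% or more in each mitfa tumour and 23.4% or less in each sox10 tumour, and the A share of mitfa tumour 6 is 1.12%.

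Within a tumour the cluster letters did not always end at the same group. With the a and b copies pooled, an end is that of a letter and not of a single cluster. Mitfa tumour 2 ended at group 3 in the A, group 9 in the B, group 6 in the C and group 10 in the D cluster. Mitfa tumour 3 reached group 13 in the A and C clusters, and in the B clusters only HOXB7 was detected, at 1.43 CPM. Sox10 tumours 9 and 10 ended at group 11 in the A, group 10 in the B and C, and group 9 in the D cluster, where HOXD9 alone was detected at 2.44 and 2.47 CPM.

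Genes of the Hox-free forebrain, eye and midbrain were read in the same tumours. Of 27 such genes 4 had enough reads in enough tumours to be tested, and 1 of the 4 was called, beside 43.9% of all genes tested. This was SIX6 (ENSDARG00000031316), an eye and hypothalamus factor. It was at 0.113 to 0.718 CPM in the mitfa tumours and at 11.04 to 580 CPM in the sox10 tumours. The groups did not overlap, and the log2 change was 9.43 ± 0.98 (SE; edgeR adjusted p = 3.79e-07). SIX6 was lowest among them in sox10 tumours 8 and 1, at 11.04 and 17.6 CPM with 38 and 23 Hox genes detected, and stood at 580 CPM in sox10 tumour 2, with 37. In sox10 tumours 4, 6 and 7, with few Hox genes, it stood at 124, 66.5 and 194 CPM.

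The other 26 genes of that list, among them a second gene named SIX6 (ENSDARG00000025187), were mostly near 0, with a different set of tumours standing out. At 1 CPM or more there were 9 of the 26 in mitfa tumour 4, and 11, 9 and 13 in sox10 tumours 4, 6 and 7. Sox10 tumour 5 had 6 and the remaining 13 tumours had 0 to 2. OTX2 (ENSDARG00000011235), a forebrain and midbrain factor, stood at 2.05, 2.35 and 6.0 CPM in sox10 tumours 4, 6 and 7 and at 0.93 CPM or less in the other 15. OTX1 stood at 6.42 CPM in mitfa tumour 4, at 1.26, 1.94 and 3.06 CPM in sox10 tumours 4, 6 and 7, at 1.23 CPM in mitfa tumour 3, and at 0.27 CPM or less elsewhere.

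The 4 tumours with the fewest Hox genes thus listed the most genes of this forebrain, eye and midbrain list. Their lists overlapped in part. OTX1 reached 1 CPM in all 4, and every gene listed in sox10 tumour 4 or 6 was also listed in sox10 tumour 7. Mitfa tumour 4 differed more from them, with OTX2 (ENSDARG00000011235) at 0.35 CPM. LHX9, a brain factor, stood at 2.57, 1.94 and 8.88 CPM in sox10 tumours 4, 6 and 7 and at 0.06 CPM in mitfa tumour 4. These are levels of a few CPM in tumours picked out by their values, and no test was made of them. Whether the listed genes are confined to regions without Hox expression was not tested, so their number gives no position.

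**Figure D5:**
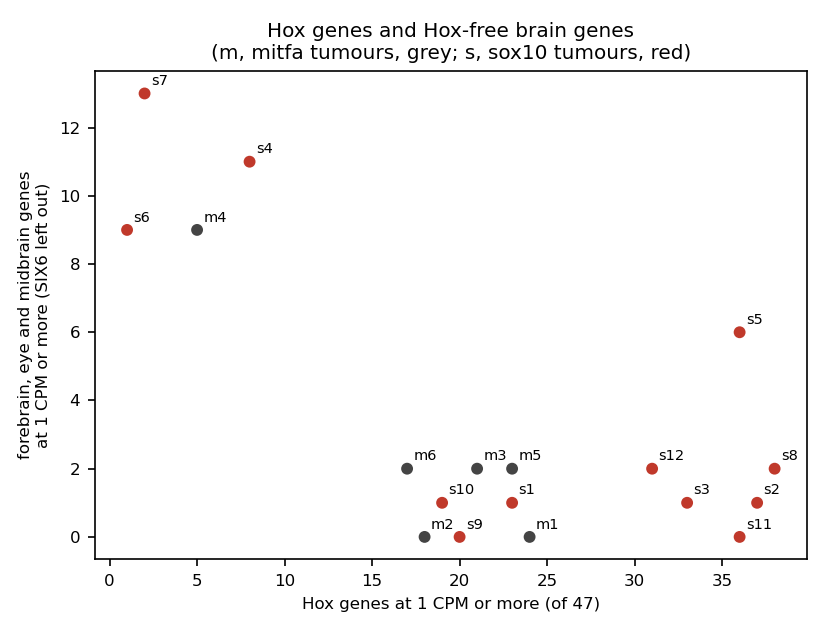
Number of forebrain, eye and midbrain genes at 1 CPM or more, of 26 with SIX6 (ENSDARG00000031316) left out (vertical), against the number of Hox genes at 1 CPM or more, of 47 (horizontal), with a labelled point for each mitfa (m) and sox10 (s) tumour. Points m4, s4, s6 and s7 lie at 9 to 13 brain genes and 1 to 8 Hox genes, s5 at 6 brain genes and 36 Hox genes, and the rest at 0 to 2 brain genes.

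Marker levels of other tissues were set beside the Hox levels, tumour by tumour. Skeletal muscle markers summed to 51.5 to 27241 CPM in the mitfa tumours and to 148 to 15636 CPM in the sox10 tumours. Mitfa tumour 3 had the lowest muscle sum (51.5 CPM) and the lowest fibroblast sum (289 CPM) of the mitfa tumours and the highest summed Hox level of them (551 CPM). Sox10 tumours 5 and 3 had muscle sums of 148 and 225 CPM with 1619 and 1266 CPM of Hox reads, while sox10 tumours 4, 6 and 7 had muscle sums of 278, 238 and 378 CPM with 32.6, 5.51 and 11.3 CPM. A single gene, mybphb, made 88.1 and 125 CPM of the sums of tumours 5 and 3, and 229, 193 and 316 CPM of those of tumours 4, 6 and 7. The order of these 5 sums therefore rests largely on that gene. Sox10 tumours 8 and 9 had muscle sums of 12287 and 12370 CPM with 1828 and 872 CPM of Hox reads. Mitfa tumour 5 had the highest muscle sum of all, 27241 CPM, with 257 CPM of Hox reads. The part of muscle tissue in the Hox levels was not tested.

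With the muscle markers as a covariate edgeR called 8 Hox genes higher and 1 lower, and with the fibroblast markers 5 higher and 2 lower. With the epidermal markers it called 2 higher and 0 lower, though the log2 values of the higher genes that lost their call stood near those without the covariate, at 4.08 for HOXB9, 4.10 for HOXC6 (ENSDARG00000101954) and 2.02 for hoxa2b. Epidermal markers summed to 4282 to 11547 CPM in the mitfa tumours and to 310 to 4547 CPM in the sox10 tumours, the highest of the latter in sox10 tumour 6. In mitfa tumours 1 and 5 the single gene krt8 made 7202 of 8046 CPM and 3507 of 4282 CPM. The marker krt5 stood at 4.44 and 3.28 CPM there, at 536 CPM or more in the other mitfa tumours and at 2.62 to 1201 CPM in the sox10 tumours. The sums thus do not rank the tumours by every epidermal marker. Neuron markers were higher for 13 of 15 genes, beside 21.5% of all genes tested. They summed to 27.6 to 304 CPM in the mitfa tumours against 494 to 1829 CPM in the sox10 tumours, with sox10 tumours 7 and 4 the highest at 1829 and 1632 CPM. These sums rested on few genes. In mitfa tumour 1 tubb5 made 285 of the 304 CPM, and ELAVL3 stood at 230 to 698 CPM in the sox10 tumours. The marker nefma stood at 76.1 and 106 CPM in sox10 tumours 7 and 4 and at 10.7 CPM or less in the other sox10 tumours. The part of neurons and Schwann cells in the Hox levels was not tested.

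Hox proteins bind DNA with partners of the PBX and MEIS families. Of 13 tested cofactor genes 5 were higher and 3 lower in the sox10 tumours, beside 21.5% higher and 22.4% lower over all genes tested, with a list median of -0.051 on the log2 scale beside -0.033 over all genes. The PBX gene pbx1a was at 0.53 to 4.80 CPM with a median of 1.86 in the mitfa tumours and at 5.90 to 73.4 CPM with a median of 34.9 in the sox10 tumours. The groups did not overlap, and the log2 change was 4.15 ± 0.57 (SE; edgeR adjusted p = 1.14e-05). The related pbx3a was at 0.103 CPM or less in every mitfa tumour and at 0.683 to 11.4 CPM in the sox10 tumours (log2 change 6.46 ± 0.76, edgeR adjusted p = 1.66e-06). PBX3 (ENSDARG00000013615) was higher by 2.27 ± 0.83 (SE; edgeR adjusted p = 0.0321). The PBX genes pbx1b and pbx2 were lower, by -2.57 ± 0.69 and -0.84 ± 0.18 (SE; edgeR adjusted p = 0.00517 and 0.000797).

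A PKNOX1 gene (ENSDARG00000036542), of the MEIS-related class, was lower as well, at 77.1 to 698 CPM in the mitfa tumours and 26.1 to 52.1 CPM in the sox10 tumours (log2 change -2.54 ± 0.36, edgeR adjusted p = 1.57e-05). Mitfa tumour 3 held the 698 CPM, and without it the change was -1.66. The other PKNOX1 gene, ENSDARG00000018765, was higher by 0.83 ± 0.23 and PKNOX2 by 1.89 ± 0.70 (SE; edgeR adjusted p = 0.00701 and 0.0340). The 4 tested MEIS genes of the list were not called, and pbx4 was not called either (log2 difference -0.17 ± 0.23, edgeR adjusted p = 0.579).

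Retinoic acid sets Hox expression in the embryo through nuclear receptors of the RAR and RXR families. Of 18 tested genes of Hox regulators and retinoic acid handling 2 were higher and 8 lower in the sox10 tumours, beside 21.5% and 22.4% of all genes tested, with a list median of -0.82. The receptor gene rarab was at 23.0 to 63.4 CPM in the mitfa tumours and at 5.08 to 14.2 CPM in the sox10 tumours, a log2 change of -2.03 ± 0.23 (SE; edgeR adjusted p = 8.81e-07). An RXRA gene (ENSDARG00000035127) and rxrga were lower by -4.54 ± 0.48 and -3.16 ± 0.34 (SE; edgeR adjusted p = 4.51e-07 and 6.34e-07). All 3 had groups that did not overlap, as had 11.8% of all genes tested.

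ALDH1A2, which makes retinoic acid, was not called (0.64 ± 0.40, edgeR adjusted p = 0.204). CYP26A1, which degrades it, was lower (-3.12 ± 0.76, edgeR adjusted p = 0.00250). It stood at 13.4 and 10.02 CPM in mitfa tumours 4 and 6 and at 1.36 CPM or less in the other mitfa tumours. In the sox10 tumours it stood at 0.970 CPM or less. The related CYP26B1 and CYP26C1 were not called (-0.46 ± 0.54 and -1.68 ± 0.85, edgeR adjusted p = 0.519 and 0.115). The gene cdx4, a caudal factor that activates Hox genes in the embryo, stayed at 0.849 CPM or less in every tumour.

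Other regional lists were read in the same way. Of 8 tested genes of the cranial neural crest 6 were lower and 1 was higher in the sox10 tumours, beside 22.4% lower and 21.5% higher over all genes tested. ALX4 (ENSDARG00000088332), a factor of the front of the face, was at 108 to 314 CPM in the mitfa tumours and at 0.203 to 4.99 CPM in the sox10 tumours (log2 change -7.04 ± 0.53, edgeR adjusted p = 5.05e-09). It was at that level in every mitfa tumour, whether few or many Hox genes were detected. The DLX2 gene ENSDARG00000079964 was lower by -8.87 ± 0.98 and the DLX2 gene ENSDARG00000017174 was higher by 2.69 ± 0.52 (SE; edgeR adjusted p = 7.71e-07 and 0.000331). The first of these stood at 83.4 to 314 CPM in mitfa tumours 2, 3, 4 and 6, but at 1.59 and 0.46 CPM in mitfa tumours 1 and 5, against at most 0.98 CPM in the sox10 tumours.

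Of 4 tested fin and limb genes 1 was higher and 2 were lower, where 43.9% of all genes tested were called. TBX4, a factor of the pelvic fin and hindlimb, was at 0.521 CPM or less in the mitfa tumours and at 0.101 to 42.7 CPM with a median of 12.9 in the sox10 tumours (log2 change 6.09 ± 1.41, edgeR adjusted p = 0.00172). It was detected in 8 of the 12 sox10 tumours, and the call was lost with limma (4.31, adjusted p = 0.275). TBX4 was highest in sox10 tumours 8 and 11, at 42.7 and 36.4 CPM with 38 and 36 Hox genes detected. In sox10 tumours 4, 6 and 7, with few Hox genes, it stood at 34.0, 24.2 and 8.65 CPM. In sox10 tumours 3, 9, 10 and 12 it stood at 0.39 CPM or less, with 33, 20, 19 and 31 Hox genes detected. The PRRX1 genes, factors of fin and limb mesenchyme, were lower by -1.44 ± 0.29 (ENSDARG00000033971, edgeR adjusted p = 0.000573) and -1.99 ± 0.69 (ENSDARG00000042027, edgeR adjusted p = 0.0255). The second call was lost without mitfa tumour 4 (edgeR adjusted p = 0.104), with reads outside genes as a covariate (edgeR adjusted p = 0.106) and with the fibroblast markers as a covariate (edgeR adjusted p = 0.0579). The fibroblast list itself holds both PRRX1 genes, so that covariate is partly made of them. Fibroblast markers, the PRRX1 genes included, were lower for 12 of 23 genes, beside 22.4% of all genes tested, with a list median of -1.44 on the log2 scale. They summed to 289 to 17130 CPM in the mitfa tumours and 436 to 3814 CPM in the sox10 tumours.

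Genes that flank the Hox clusters in vertebrates were read last. Of 19 tested neighbours 5 were higher and 6 lower, beside 21.5% and 22.4% of all genes tested, with a list median of -0.095 on the log2 scale. The gene snx11, beside the B cluster in vertebrates, was higher by 1.74 ± 0.25 (SE; edgeR adjusted p = 1.92e-05), while skap1, also beside the B cluster, was lower by -1.29 ± 0.37 (edgeR adjusted p = 0.00845). SKAP2, beside the A cluster, was lower by -1.33 ± 0.31 (edgeR adjusted p = 0.00194). With reads outside genes as a covariate both skap1 and SKAP2 lost their call (edgeR adjusted p = 0.131 and 0.196), and SKAP2 also lost it without mitfa tumours 1 and 5 (-0.70, edgeR adjusted p = 0.0759).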

How the data were processed

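Whole tumours were extracted and total RNA was made into Illumina libraries, per the labels' protocols. The submitters' processing notes name the build GRCz10 and the tools STAR, Trimmomatic, FastQC and DESeq2 but give no version or role. The annotation is not given in the sources used here, nor is the strand setting. Raw read counts per Ensembl gene for 18 libraries were deposited by the authors, with entries for reads that name no gene, 19.9% to 30.1% of a library, which were kept out of all tests. Depth, 14973777 to 21191902 gene reads, limits precision for genes near 1 CPM.

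The injected plasmid, as labelled, defined the groups. Names came from a reference table that named 24020 of 27057 genes. Of the 47 Hox genes, 15 carry a zebrafish copy letter there and 23 match the only copy left in RefSeq, while 9 share a name or could be either copy and are printed with their identifier. In RefSeq the spans of hoxa3a, hoxb1b, hoxb3a, hoxc3a and hoxd3a hold other Hox genes of the same cluster, so reads of these neighbours may be shared or lost as ambiguous.

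Counts were fitted with edgeR 4.0.16 (R 4.3.3; TMM factors, filterByExpr with a minimum count of 10 and total of 15, robust quasi-likelihood F test) over all 18731 genes, with Benjamini-Hochberg adjustment and a threshold of 0.05. Changes are sox10 minus mitfa. Alternatives used DESeq2 1.42.0, limma 3.58.1 voom, other scalings and filters, covariates, and tumours left out. The fit was tested on simulated data. Values are given by group for Hox genes that were called or had a group mean of at least 2 CPM, or were the furthest detected, and in other lists for the called genes with the smallest adjusted p, up to 3, with further genes named after their values were seen. The values of 1 Hox gene and 1 gene of the brain list are not reported here. The members, lists and tests were chosen with earlier results of these data known.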

Additional observations from a re-analysis of the deposited data

Results flagged for a closer look

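In 43 checks of the 6 mitfa tumours, over the tested Hox genes and the summaries per tumour, 5 had an extreme tumour whose gap to its neighbour was large against the group's range on the log2(CPM + 1) scale or in the count; chance gives about 1 in 20. HOXB4 in mitfa tumour 2 stood at 3.72 CPM, against 0.99 CPM or less in the other 5. In mitfa tumour 3, hoxc11b stood at 56.3 CPM, against 3.59 CPM or less, and HOXC12 (ENSDARG00000103133) at 14.03 CPM, against 1.22 CPM or less. Mitfa tumour 4 had 5 detected Hox genes, against 17 to 24 in the others, and a D cluster sum of 7.46 CPM, against 85.7 CPM or more. The sox10 group, with 12 tumours, was not checked in this way.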

How the results depend on the processing

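The number of Hox genes called higher and lower (5 and 1) was 9 and 1 with DESeq2, 0 and 1 with limma, 3 and 0 with a filter of 5 CPM in 6 tumours, and 2 and 1 without mitfa tumours 1 and 5. With covariates it was 1 and 0 (reads outside genes), 8 and 1 (muscle), 5 and 2 (fibroblast) and 2 and 0 (epidermis). Leaving out each tumour in turn gave 3 to 7 higher and 0 to 1 lower. Other scalings, no filter, dispersion without robust weights, a 2-fold minimum and summing sox10 tumours 9 and 10 kept both counts within 1.5 times. Among the regional and cofactor lists, 15 were higher and 25 lower; the lower count was 12 with the 5 CPM filter, the higher count 9 with reads outside genes, and leaving out a tumour gave 11 to 15 and 21 to 26. The cause of these shifts was not tested. The summaries per tumour by group stayed within 1 SD under every detection threshold, scaling and left-out tumour.

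The replicate numbers were shared by the groups, but same-numbered tumours correlated between -0.31 and 0.17, so the numbers do not pair the samples. With the replicate number as a block among replicates 1 to 6, 0 Hox genes were higher and 0 lower, and 16 list genes were lower; the same 12 tumours without the block, a fit chosen after seeing the data, gave 1 and 1, and 7 list genes higher.

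Some log2 differences of genes that were not called changed sign. HOXA3 (-0.12) was 0.24 with limma, 0.88 with the replicate block, 0.023 for the same tumours without it and 0.43 with muscle; HOXA11 (ENSDARG00000007009) was 1.51 with limma and 0.16 without mitfa tumours 1 and 5. HOXC10 (-0.053) was 1.22 with limma, 0.057 with sox10 tumours 9 and 10 summed and 0.60 without mitfa tumours 1 and 5. HOXC11 was -0.20 with the block and -0.020 with reads outside genes, which also gave 0.51 for HOXD9, 0.27 for HOXD10 and -0.33 for MITF (ENSDARG00000037833). HOXD10 was 0.054 without mitfa tumours 1 and 5, and HOXD11 was -0.0093 with the block. With each tumour left out, HOXA3 ran from -0.37 to 1.33, HOXA11 (ENSDARG00000007009) from -0.69 to 0.27, HOXC6 (ENSDARG00000070343) from -0.57 to 0.22 and HOXC10 from -0.36 to 0.47.

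Depth limits genes near 1 CPM, and CPM gives no level per length. The body site of each tumour was not known here, so the paralog groups describe Hox expression and not a measured position.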
